A study of Homo sapiens with 2 samples.

Results

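The genes described here encode proteins of synaptic vesicles and of the machinery that fuses vesicles with membranes. Members were taken by gene symbol, from the synaptotagmin (SYT), synaptotagmin-like (SYTL), SV2, syntaxin (STX), syntaxin-binding (STXBP), VAMP, SNAP, synapsin (SYN), complexin (CPLX), synaptogyrin (SYNGR), RIMS, NSF, UNC13 and DOC2 families, together with SYP, BSN and PCLO. This gave 73 genes, read by 75 probe sets, of the 14812 named genes on the arrays. In the RefSeq gene table the same symbols covered 86 protein-coding genes. The other 13, among them SNAP25, SNAP23, DOC2A and DOC2B, were not analysed here. The families were chosen by symbol with their log2 differences between these same arrays already in view, SV2A's among them, so every value is given as a description and supports nothing by itself.

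BE(2)C is an established human neuroblastoma cell line with an amplified MYCN gene, which encodes a transcription factor of the MYC family. One culture was transfected with siRNA against MYCN, and RNA was taken 36 hours later. Its comparison was a culture transfected with non-targeting control siRNA and harvested at the same time. The title of the control array calls it a reanalysis without saying what was redone, so whether both arrays were run together is not known. Both received a lipid transfection reagent, and the siRNAs came from different suppliers, with 1 MYCN siRNA sequence named. Each RNA was read on 1 Affymetrix Human Gene ST array, where several short probes make up the probe set of a transcript. There was therefore 1 array per group, no replicate, and no p-value or standard error could be had for any difference. MYCN's own level was not analysed here, and the depth of the knockdown is therefore not given.

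Values are the authors' log2 levels from RMA, and each difference is taken on that scale with MYCN siRNA on top, so that a negative one means lower with MYCN siRNA. A gene counted as measured when its mean level over both arrays reached 4.58, the median of all probe sets. Of the 14812 genes, 10305 were measured, and their median difference was 0.01 with an SD of 0.42 across genes. The only yardstick of error is the spread between probe sets of 1 gene, an SD of 0.31 per probe set over 370 protein-coding genes, which leaves out the spread between cultures. Signals of different probe sets do not compare as amounts of RNA, so levels are set against each other only between the arrays. Of 9 noradrenergic neuroblastoma markers with a row, 9 were measured, at 6.53 to 10.8 in the MYCN siRNA array and 6.47 to 10.6 in the control siRNA array. The haematopoietic markers CD14 and CSF1R were not measured. Of the glial markers, S100B was at 6.92 with MYCN siRNA and 5.90 with control siRNA, while SOX10 (−0.28) and GFAP (−0.24) were lower. Of the fibroblast markers, LUM was at 5.37 with MYCN siRNA and 6.54 with control siRNA, and DCN, under the filter, was at 3.86 with MYCN siRNA and 3.12 with control siRNA. Epithelial KRT18 (−0.38) and KRT8 (−0.06) and endothelial VWF (0.02) were measured, and EPCAM (−0.13) and KDR (−0.65) were not. The part of these markers in the differences below was not tested.

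Neurons and neuroendocrine cells store transmitter in vesicles and release it when calcium enters. A vesicle SNARE of the VAMP family zips together with syntaxin and SNAP-25 family SNAREs on the target membrane, and this pulls the membranes into fusion. Synaptotagmins sense the calcium, complexins clamp the partly zipped complex, UNC13 and RIM proteins prime vesicles at the active zone, syntaxin-binding proteins steer syntaxin, and the ATPase NSF takes spent complexes apart. SV2 proteins are glycoproteins of the vesicle membrane, and SV2A is the binding site of the antiepileptic drug levetiracetam. Other syntaxins and VAMPs serve fusion inside all cells, at the Golgi, endosomes and lysosomes.

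Of the 73 members, 63 were measured and 10 lay under the filter. A single member, SV2A, differed by 2-fold or more, and it was lower with MYCN siRNA. Among all measured genes 1.13% were at least 2-fold lower and 2.18% at least 2-fold higher. At 1.5-fold, 4 members were lower (6.35% of those measured, against 5.69% of all measured genes) and 6 were higher (9.52%, against 8.71%). Among the 4, SYT10 and SYT13 lay under the filter level with MYCN siRNA and passed only through the control siRNA array, where they were higher. After median centring the counts at 1.5-fold were 3 lower and 9 higher (4.61% and 10.5% of all measured genes). With 16 added to the linear values, which damps dim genes, 1 of the 63 was lower and 6 were higher (3.99% and 6.29% of all measured genes). With a filter at the 70th percentile, 1 of 42 members was lower and 6 were higher (6.48% and 9.57% of all genes past that filter). Differences below 0 were found for 30 of the 63, or 47.6%, against 47.9% of all measured genes. The median difference of the 63 was 0.01, as for all measured genes. In the values as deposited, the set as a whole lay near the background on each of these counts. Split at a mean level of 6, a bound chosen after seeing the data, it did not. Under 6, 17 of 21 members were below 0 (81.0%, against 54.8% of measured genes at that level). Of these 17, 10 were synaptotagmins. Among the 17, SYT3, SYT10, SYT13 and CPLX3 passed the filter only through the control siRNA array, where they were higher, so their direction is no support. At 6 or more, 29 of 42 were above 0 (69.0%, against 55.0%). The roles differed from each other in the values that follow.

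**Figure D1:**
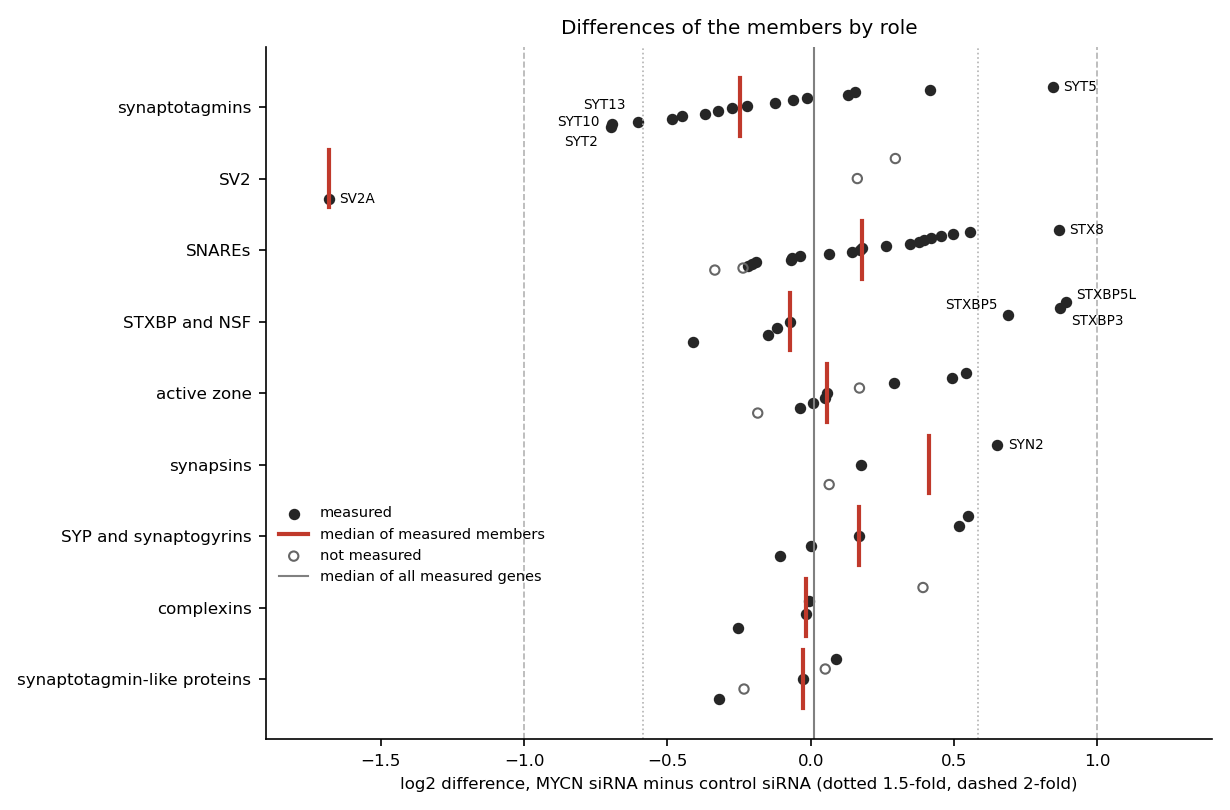
Log2 difference between the MYCN siRNA array and the control siRNA array (x axis) for the 73 members, by role; filled points are measured members, open points lie under the filter, and red bars are medians of measured members. SV2A stands alone at −1.68, synaptotagmins spread mostly to the left of 0 and SNAREs mostly to the right, while SYT5, STX8, STXBP3 and STXBP5L lie near 0.9 on the right.

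SV2A had a level of 7.95 in the MYCN siRNA array, against 9.63 in the control siRNA array. The difference of −1.68 (3.21-fold lower) was the sixth lowest of the 10305 measured genes, and 5.44 times the probe-set SD. This value was in view when the families were chosen, so its rank and this multiple are descriptions and no test. SV2A had 1 probe set, and the SD comes from other genes and leaves out the spread between cultures. Both levels lay well inside the range of the arrays, above 86.6% of all probe sets with MYCN siRNA and above 95.4% with control siRNA. Its paralogs were dim. SV2B, which is found on many excitatory synapses, had 4.51 with MYCN siRNA and 4.35 with control siRNA, and SV2C, known from basal ganglia, had 3.22 with MYCN siRNA and 2.93 with control siRNA. Neither SV2B nor SV2C was measured, so SV2A was the only measured SV2 gene. In whole-culture RNA of this kind, fewer cells with a transcript and less of it per cell cannot be told apart.

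MYC-family proteins bind the E-box CACGTG as partners of MAX, and the RefSeq promoters (GRCh38.p14, 250 bases before to 50 after a gene's start) were searched for these 6 letters, which read the same on both strands. A promoter was at hand for 58 of the 73 members. The 250 bases before the listed start of SV2A, the member furthest from 0, are shown because they hold no CACGTG. Only 1 start per gene was searched, and whether SV2A is transcribed from this one in these cells is not known. Its full window had a GC content of 37.3%, where those of the other measured members had 52.7% (SYTL3) to 82.3% (SYNGR1). The sequence may therefore not be the main promoter of SV2A, and other starts of the gene were not searched. They lie at chr1:149906992-149907241 on the minus strand and have a GC content of 37.2%, with nothing in capitals since no motif was found.
SV2A: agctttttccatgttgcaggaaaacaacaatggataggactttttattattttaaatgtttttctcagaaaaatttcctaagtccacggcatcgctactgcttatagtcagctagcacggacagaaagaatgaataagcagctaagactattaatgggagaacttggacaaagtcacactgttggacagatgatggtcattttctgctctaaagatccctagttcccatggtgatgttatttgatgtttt

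The motif stood in the windows of 7 of the 58 members (12.1%). The share was 7.43% among all 27305 promoters in the table and 10.0% among the 7957 that belong to measured genes. All 7 members were measured, so that among the 50 measured members with a promoter the share was 14%. They are shown with 20 bases on each side and the E-box in capitals, so that the flanks can be compared.
SYT14: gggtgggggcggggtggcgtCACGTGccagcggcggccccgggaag
SYT6: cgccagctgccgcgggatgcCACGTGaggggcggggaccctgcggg
STX2: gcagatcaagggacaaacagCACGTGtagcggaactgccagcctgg
STX6: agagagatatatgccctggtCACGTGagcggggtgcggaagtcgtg
STXBP2: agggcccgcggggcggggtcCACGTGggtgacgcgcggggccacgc
CPLX3: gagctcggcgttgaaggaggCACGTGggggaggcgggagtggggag
UNC13A: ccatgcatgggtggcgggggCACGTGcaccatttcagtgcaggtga

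The stretches lie at chr1:209938019-209938064 (plus strand, SYT14), chr1:114153906-114153951 (minus, SYT6), chr12:130839391-130839436 (minus, STX2), chr1:181022990-181023035 (minus, STX6), chr19:7637055-7637100 (plus, STXBP2), chr15:74826428-74826473 (plus, CPLX3) and chr19:17688553-17688598 (minus, UNC13A). CPLX3 holds another E-box, 149 bases before its start. The motif begins 224 bases before the start in UNC13A, 179 in CPLX3 (the one shown), 178 in SYT14, 166 in STX2, 145 in STX6, 62 in SYT6 and 35 in STXBP2. Differences of these 7 genes ran from −0.48 for SYT6 to 0.06 for UNC13A, with a median of −0.22 and 6 of 7 below 0. Of the 6, CPLX3 passed the filter only through the control siRNA array, where it was higher (4.55 with MYCN siRNA and 4.81 with control siRNA). None of the 7 was 1.5-fold apart, and 7 genes are too few to set apart from the background. Of the 798 measured genes with the motif, 86 were at least 1.5-fold lower and 47 at least 1.5-fold higher. The 43 measured members with a promoter but no match had a median of 0.15, with 15 below 0. Over all measured genes the corresponding medians were −0.04 (798 genes with the motif, 55.3% below 0) and 0.03 (7159 genes without, 46.0% below 0). A match is a run of letters and does not show binding, and its absence from this window says nothing about other start sites of a gene.

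All 16 synaptotagmins with a row were measured. Their median difference was −0.25, and 12 of 16 were lower with MYCN siRNA (against 47.9% of all measured genes). After median centring, quantile normalization or loess, 11 of 16 were below 0, where 42.8%, 48.5% and 46.7% of all measured genes were. SYT2, a fast calcium sensor of fusion, was at 5.48 with MYCN siRNA and 6.18 with control siRNA (1.62-fold lower). SYT10, a calcium-binding member known from growth-factor vesicles in mouse olfactory neurons, was at 4.42 with MYCN siRNA and 5.11 with control siRNA (1.62-fold lower). SYT13, which lacks the residues for calcium binding, was at 4.47 with MYCN siRNA and 5.07 with control siRNA (1.52-fold lower). SYT13 was short of 1.5-fold after median centring, quantile normalization, loess and the offset, and SYT2 and SYT10 were short of it after the offset. SYT10 and SYT13, like SYT3, lay under the filter level of 4.58 in the MYCN siRNA array and passed on the mean through the control siRNA array.

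SYT5, a calcium-binding synaptotagmin of dense core vesicles, went against this direction, at 8.49 with MYCN siRNA and 7.64 with control siRNA (1.80-fold higher). SYT11, a member that does not bind calcium and that restrains endocytosis in mouse neurons, was at 11.97 with MYCN siRNA and 11.55 with control siRNA (difference 0.42). SYT1, the main sensor of fast transmitter release in forebrain neurons, was at 8.48 with MYCN siRNA and 8.33 with control siRNA. SYT4, found on dense core vesicles, was at 8.60 with MYCN siRNA and 8.47 with control siRNA. The differences of SYT1 (0.15) and SYT4 (0.13) are smaller than the probe-set SD.

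The direction of a synaptotagmin went with its signal, split at a mean level of 6, a bound chosen after seeing the data. Of all members under that level, 17 of 21 were below 0, and 10 of these 17 were synaptotagmins. At 6 or more, 29 of 42 members were above 0. Of the 3 measured SNAREs under that level, 2 were above 0 and 1 was below, with a median of 0.26. All 10 synaptotagmins with a mean level under 6 (SYT2, SYT3, SYT6, SYT7, SYT8, SYT10, SYT12, SYT13, SYT15 and SYT17) were lower with MYCN siRNA in the values as deposited. They had a median of −0.41 and a range of −0.70 to −0.01. After median centring, quantile normalization or loess 9 of these 10 were below 0. Among the 10, SYT3, SYT10 and SYT13 passed the filter only through the control siRNA array, where they were higher. Among all measured genes under that level 54.8% were below 0, with a median of −0.05. Of the 6 synaptotagmins at a mean level of 6 or more, SYT1, SYT4, SYT5 and SYT11 were above 0 and SYT9 (−0.06) and SYT14 (−0.27) below, with a median of 0.14 against 0.05 for all measured genes at that level. SYT14, which does not bind calcium, was at 9.48 with MYCN siRNA and 9.75 with control siRNA. Dim probe sets near the filter are not shown to lie above background, and the part of signal strength in the direction was not tested.

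Sorting by calcium binding did not separate the family. The 8 calcium-binding members (SYT1, SYT2, SYT3, SYT5, SYT6, SYT7, SYT9 and SYT10) had a median of −0.30 with 6 below 0, and the other 8 had a median of −0.20, also with 6 below 0. SYT7, the slow sensor of asynchronous release, was at 5.07 with MYCN siRNA and 5.29 with control siRNA. SYT9, a fast sensor like SYT1 and SYT2, was at 6.85 with MYCN siRNA and 6.91 with control siRNA. Those 3 fast sensors thus had differences of 0.15 (SYT1), −0.70 (SYT2) and −0.06 (SYT9).

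Synaptotagmin-like proteins bind Rab27 on secretory granules. Of the 5, SYTL1, SYTL3 and SYTL4 were measured, all at mean levels of 4.81 to 5.08, with SYTL1 lowest at 4.92 with MYCN siRNA and 5.24 with control siRNA. SYTL3 was highest at 5.02 with MYCN siRNA and 4.94 with control siRNA. Their median was −0.03, which turned to 0.02 after median centring, 0.03 after quantile normalization and 0.04 after loess. SYTL2 and SYTL5 lay under the filter.

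**Figure D2:**
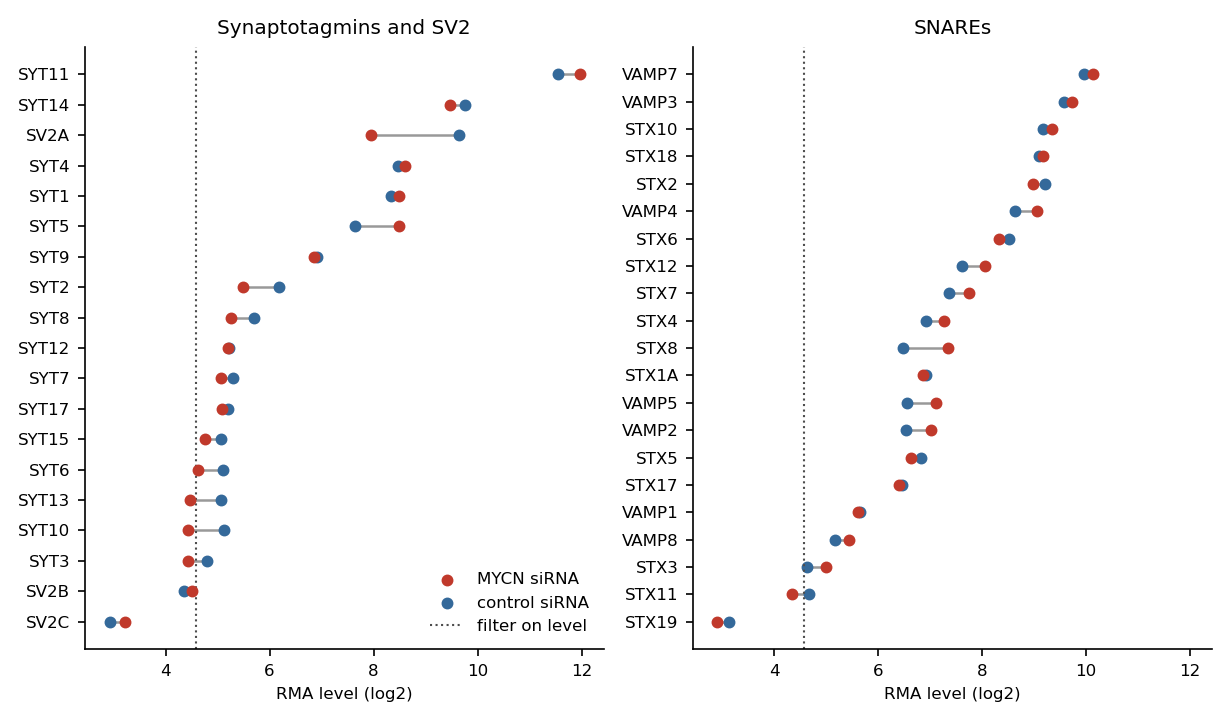
RMA level on the log2 scale (x axis) of each synaptotagmin and SV2 gene (left) and each SNARE (right) in the MYCN siRNA array (red) and the control siRNA array (blue), 1 array each, in the order of the mean signal. The red point of SV2A lies 1.68 left of its blue point; the dim synaptotagmins are red to the left, and most SNAREs are red to the right.

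Among the SNAREs 19 of 21 were measured, and STX11 and STX19 were not. Their median difference was 0.18, with 13 of 19 above 0 (68.4%, against 50.9% of all measured genes). After median centring 14 were above 0 (73.7%, against 57.2% of all measured genes), and after loess also 14 (against 53.3%). The lowest, STX2, a plasma membrane syntaxin, was at 8.99 with MYCN siRNA and 9.21 with control siRNA (1.16-fold lower), so no measured SNARE was 1.5-fold lower.

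The highest SNARE was STX8, a late endosomal syntaxin, at 7.35 with MYCN siRNA and 6.49 with control siRNA (1.82-fold higher). STX8 forms a complex with STX7, VAMP8 and VTI1B in the fusion of late endosomes. STX7 was at 7.76 with MYCN siRNA and 7.36 with control siRNA. VAMP8 was at 5.43 with MYCN siRNA and 5.17 with control siRNA. VTI1B, which is not a member of the set, was at 8.37 with MYCN siRNA and 8.64 with control siRNA. Of this complex 3 genes were thus higher (differences of 0.87, 0.40 and 0.26) and VTI1B was lower (−0.27).

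The other endosomal syntaxins went both ways. STX12, of recycling endosomes, was at 8.07 with MYCN siRNA and 7.61 with control siRNA (1.37-fold higher). STX6, of the trans-Golgi network and endosomes, was at 8.32 with MYCN siRNA and 8.51 with control siRNA (1.14-fold lower), and STX10, its close relative, was at 9.35 with MYCN siRNA and 9.18 with control siRNA. STX5, which serves transport from the endoplasmic reticulum to the Golgi, had a difference of −0.21, STX18 of the endoplasmic reticulum one of 0.07, and STX17, which drives fusion of autophagosomes with lysosomes, one of −0.07.

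Plasma membrane syntaxins outside the neuronal release complex included STX2, described above as the lowest SNARE, STX4 and STX3, and they went both ways. STX4 was at 7.27 with MYCN siRNA and 6.92 with control siRNA (1.27-fold higher), and STX3 was at 5.01 with MYCN siRNA and a dim 4.63 with control siRNA. Of the 12 measured syntaxins 7 were above 0 (58.3%, against 50.9% of all measured genes), with a median of 0.12.

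Of the 7 VAMPs 6 were above 0 (against 50.9% of all measured genes), with a median of 0.26. After median centring or loess 7 were above 0, where 57.2% and 53.3% of all measured genes were. VAMP5, known from muscle, was at 7.12 with MYCN siRNA and 6.57 with control siRNA (1.47-fold higher). VAMP2, the vesicle SNARE of most synapses, was at 7.03 with MYCN siRNA and 6.53 with control siRNA (1.41-fold higher). VAMP4, of the trans-Golgi network, was at 9.06 with MYCN siRNA and 8.64 with control siRNA (1.34-fold higher). VAMP3, of recycling endosomes, and VAMP7, of late endosomes and lysosomes, had differences of 0.14 and 0.18, and the pair of probe sets of VAMP7 gave 0.15 and 0.21. VAMP1, a synaptic paralog of VAMP2, was at 5.62 with MYCN siRNA and 5.66 with control siRNA.

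The neuronal release SNAREs with a row were STX1A, VAMP1 and VAMP2. STX1A, the syntaxin of the presynaptic membrane, was at 6.86 with MYCN siRNA and 6.93 with control siRNA. Their median was −0.04 with VAMP2 alone above 0, against a median of 0.22 and 12 of 16 above 0 for the other measured SNAREs. With so few release SNAREs no difference between these groups can be read, and it was not tested.

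Set beside each other, synaptotagmins and SV2A had a median of −0.27 (13 of 17 below 0, range −1.68 to 0.85), and SNAREs had a median of 0.18 (6 of 19 below 0, range −0.22 to 0.87). The difference between the medians was −0.45, and −0.43 without SV2A. It differed by signal. At a mean level of 6 or more, the median was 0.13 over the 7 genes of this group (6 synaptotagmins and SV2A), against 0.18 over 16 SNAREs, and the difference between them was −0.05. Below that level, the 10 synaptotagmins had a median of −0.41 and the 3 SNAREs VAMP1, VAMP8 and STX3 one of 0.26. The medians of −0.27 and −0.41 both include SYT3, SYT10 and SYT13. These genes passed the filter only through the control siRNA array, where they were higher, so their direction is no support. With 1 array per group, these comparisons are across genes that share the same pair of RNA samples.

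**Figure D3:**
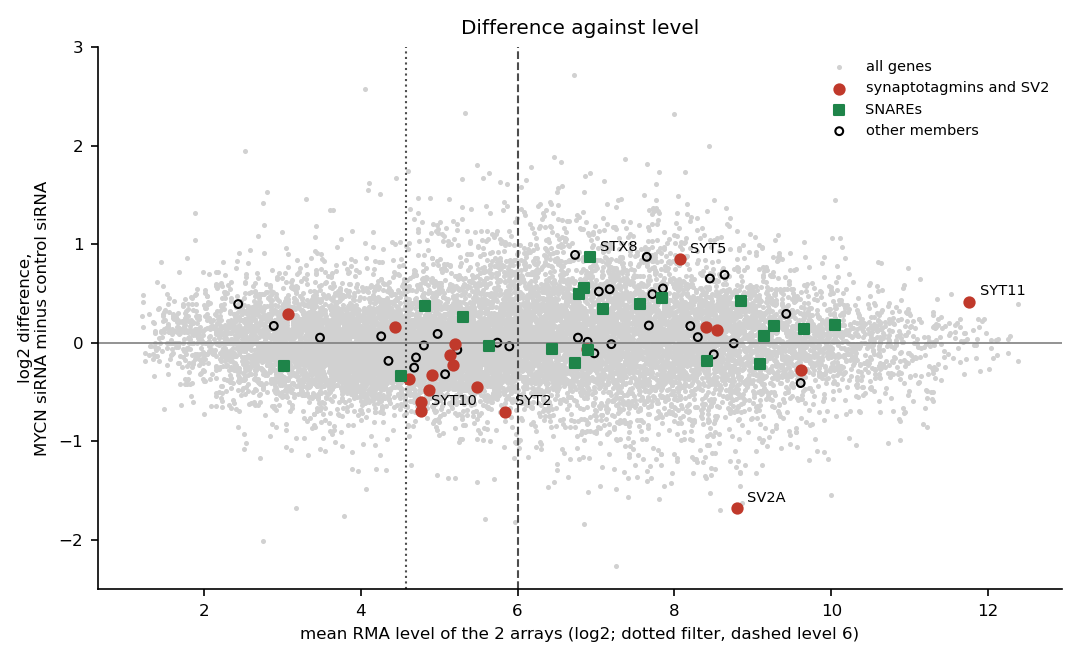
Log2 difference, MYCN siRNA minus control siRNA (y axis), against the mean RMA level of both arrays (x axis) for all genes (grey), synaptotagmins and SV2 (red), SNAREs (green) and other members (open circles); the dotted line is the filter and the dashed line is level 6. Between the lines every red point is below 0, and to the right of the dashed line red and green points overlap apart from SV2A at −1.68.

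Syntaxin-binding proteins held 3 of the 6 members that were at least 1.5-fold higher with MYCN siRNA. With NSF they are a group of 7, and 8.71% of all measured genes were that much higher. STXBP5L, or tomosyn-2, an inhibitor that mimics a VAMP and occupies the target SNAREs, was at 7.18 with MYCN siRNA and 6.29 with control siRNA (1.85-fold higher). STXBP5, tomosyn-1, was at 8.98 with MYCN siRNA and 8.29 with control siRNA (1.61-fold higher). STXBP3, or MUNC18-3, the partner of STX4 in the insertion of membrane proteins at the cell surface, was at 8.08 with MYCN siRNA and 7.21 with control siRNA (1.83-fold higher).

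The other 4 of this group were below 0. STXBP2, the MUNC18 of granule release in blood cells, was at 5.20 with MYCN siRNA and 5.27 with control siRNA, STXBP4 had a difference of −0.12 and STXBP6, amisyn, one of −0.15 from dim levels. NSF was at 9.41 with MYCN siRNA and 9.81 with control siRNA (1.33-fold lower), the lowest of the group. Its pseudogene NSFP1 is a near copy, and both of its probe sets stood at 10.05 with MYCN siRNA and 10.58 with control siRNA, so signals of the gene and the pseudogene may not be separable and the value of NSF is uncertain. The group of 7 had a median of −0.07.

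Among active zone proteins, 7 of 9 were measured, and RIMS1 and UNC13C were not. Their median was 0.06, with 6 of 7 above 0 as deposited, 7 after median centring, 5 after loess and 4 after quantile normalization. Of all measured genes 50.9%, 57.2%, 53.3% and 51.5% were above 0 in that order, so the counts do not set this group apart. RIMS4, which encodes a short RIM protein, was at 7.45 with MYCN siRNA and 6.90 with control siRNA (1.46-fold higher). RIMS2, a Rab3-binding scaffold that tethers calcium channels, was at 7.97 with MYCN siRNA and 7.47 with control siRNA (1.41-fold higher). UNC13B, a priming factor of synapses and endocrine cells, was at 9.57 with MYCN siRNA and 9.28 with control siRNA. The remaining members, the large scaffolds BSN (0.01) and PCLO (0.05), the main neuronal priming factor UNC13A (0.06) and UNC13D of cytotoxic granules (−0.04), were nearly level between the arrays.

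Synapsins tether vesicles in the reserve pool. SYN2 was at 8.78 with MYCN siRNA and 8.13 with control siRNA (1.57-fold higher), SYN1 was at 7.76 with MYCN siRNA and 7.59 with control siRNA, and SYN3 was not measured. Synaptogyrins and synaptophysin (SYP) are tetraspan proteins of the vesicle membrane. SYNGR2, the widely expressed form, was at 8.13 with MYCN siRNA and 7.58 with control siRNA (1.46-fold higher), and SYNGR3, a neuronal form, was at 7.30 with MYCN siRNA and 6.78 with control siRNA (1.43-fold higher). SYNGR1 had a difference of 0.17, and SYNGR4 was at 5.74 on both arrays.

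The 2 probe sets of SYP disagreed. The brighter was at 8.03 with MYCN siRNA and 7.94 with control siRNA, and the dimmer was at 5.82 with MYCN siRNA and 6.12 with control siRNA. Their mean gave −0.11, and no direction can be read for SYP. Of the complexins, CPLX1 and CPLX2, the forms of conventional synapses, were level between the arrays at −0.01 each. CPLX3, of retinal ribbon synapses, was dim and below the filter level with MYCN siRNA, at 4.55 with MYCN siRNA and 4.81 with control siRNA, and CPLX4 was not measured. The 3 measured complexins had a median of −0.01, which was −0.09 after quantile normalization, −0.05 after loess and 0.03 after median centring, so no direction can be read.

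Other genes of vesicle release and recycling were taken from 8 lists of 116 genes, of which 79 had a row and 67 were measured. Of these 54 were above 0 (80.6%, against 50.9% of all measured genes), with a median of 0.22. At 1.5-fold 9 were higher (13.4%, against 8.71% of all measured genes) and 1 was lower (1.49%, against 5.69%). At 2-fold 3 were higher (4.48%, against 2.18%) and 0 lower (against 1.13%). The count above 0 was 54 or 55 after median centring, quantile normalization, loess or an offset. The 79 genes with a row had a median level of 7.89 with MYCN siRNA and 7.63 with control siRNA. Of all measured genes at a mean level of 6 or more, 55.0% were above 0, with a median of 0.05. These lists were chosen with earlier results of the arrays known, and DBH in particular had been described as higher.

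RPH3A, rabphilin, a Rab3 effector with C2 domains like those of synaptotagmins, was at 8.65 with MYCN siRNA and 7.62 with control siRNA (2.03-fold higher), and MADD, an exchange factor of Rab3, was lowest of its list at −0.14. ERC1, the active zone and cortical scaffold ELKS, was at 7.82 with MYCN siRNA and 6.81 with control siRNA (2.01-fold higher), with LIN7B lowest of its list at −0.24. ITSN2, an endocytic scaffold, was at 8.58 with MYCN siRNA and 7.63 with control siRNA (1.93-fold higher), while its paralog ITSN1 was at 7.64 with MYCN siRNA and 8.07 with control siRNA (1.35-fold lower). Of the 8 measured exocyst subunits, which tether vesicles at the plasma membrane, 7 were above 0, against 50.9% of all measured genes. They ran from EXOC4 at −0.12 to EXOC6B at 0.70.

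Dense core granule cargo was above 0 in 8 of 9 measured genes, against 50.9% of all measured genes. It ran from PAM, the peptide-amidating enzyme, at −0.002 to DBH, dopamine beta-hydroxylase, at 1.45. SCG5, a granule chaperone in this count and among the 9 genes at least 1.5-fold higher, was at 5.25 with MYCN siRNA and 4.36 with control siRNA, and so passed the filter through the array in which it was high. Among SNAREs outside the set and their cofactors, 9 of 11 were above 0 (81.8%, against 50.9%), from VTI1B at −0.27 to SNAPIN at 0.47. Of 6 measured vesicle membrane proteins and transporters, 4 were above 0 (66.7%, against 50.9%), too few genes to set apart from that share. They ran from SCAMP1 at −0.12 to SCAMP2 at 0.38. SCFD2, of the SM protein family to which the MUNC18 proteins belong, was the only gene of these lists at least 1.5-fold lower, at 9.10 with MYCN siRNA and 10.01 with control siRNA (1.88-fold lower), and VPS33B was the highest of that list at 0.47.

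**Figure D4:**
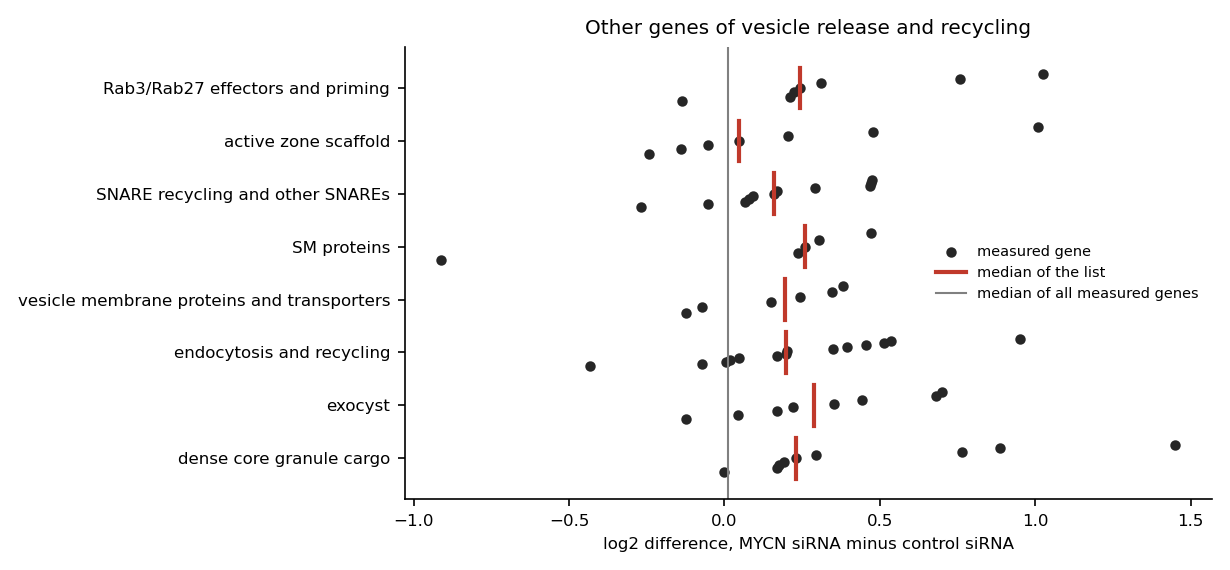
Log2 difference, MYCN siRNA minus control siRNA (x axis), of the measured genes (points) of 8 lists of vesicle release and recycling outside the set, with the median of each list (red) and of all measured genes (grey line). Every list median lies to the right of the grey line, and SCFD2 at −0.91 and DBH at 1.45 are the extremes.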

How the data were processed

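The deposited table holds log2 expression values, which the authors computed by RMA, per the submitters' processing notes; the sources used here give neither settings nor software. The sorted values of the arrays lay within 0.128 of each other, so a change in total messenger RNA per cell cannot be seen. Of 46255 rows the platform annotation named 15835, and all 15835 matched RefSeq gene identifiers (GRCh38.p14). The membership rule was read as a family stem followed by digits, with or without a letter, or by 1 letter, and NSF itself was kept. Probe sets of a gene were averaged. Members, lists and tests were chosen with earlier results of these data known. Named genes were each member at least 1.5-fold apart, the highest and lowest of each role and, outside the set, of each list, and further members by role. Genes with a promoter match were named after their values were seen. With 1 array per group no test was run. Alternatives were other normalizations, filters, probe-set rules, an offset of 16 and a wider rule. Scripts were tested on simulated data and used Python 3.11.15, pandas 2.3.3 and statsmodels 0.14.6.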

Additional observations from a re-analysis of the deposited data

How the results depend on the processing

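Only 4 alternatives can move the value of a gene with 1 probe set (median centring, quantile normalization, loess and 16 added to the linear values). Under these 4 the difference of SV2A lay between −1.69 and −1.62, and SYT5, STX8, STXBP3, STXBP5, STXBP5L and SYN2 were at least 1.5-fold higher in 4 of 4. SYT13 was past 1.5-fold in 0 of 4 (−0.55 to −0.38), and SYT2 and SYT10 in 3 of 4. With a filter at the 70th percentile, which removes dim genes, the median of synaptotagmins and SV2 turned to 0.13 and that of synaptotagmins to 0.14, the difference from SNAREs was −0.047, the median of all members was 0.17, and 1 member was at least 1.5-fold lower. A lower bound of 6 on the mean level, added after seeing the data, kept the same number of members and gave the same values (0.13, 0.14, −0.047, 0.17 and 1). With 16 added to the linear values, 1 member was at least 1.5-fold lower. The median of all members was 0.059 after centring and 0.051 with the brightest probe set or no filter. Without SV2A, also added after seeing the data, 0 members were 2-fold lower, where 1 was. A wider reading of the rule added SNAPIN, SYNDIG1 and NSFL1C to the measured members. No paired analysis was possible because each group has 1 array, and for the same reason no array could be left out.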
